A study of Mus musculus with 12 samples.

Results

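The 9 genes *P2ry12*, *P2ry13*, *Gpr34*, *Tmem119*, *Siglech*, *Fcrls*, *Olfml3*, *Sparc* and *Slc2a5* belong to the homeostatic signature of microglia, the genes by which resting brain microglia are commonly told apart from other macrophages. They were followed in ChIP-seq of Rpb2, a subunit of RNA polymerase II, and of H3K27Ac, a histone H3 acetylation that marks promoters and enhancers in use. A peak was assigned to a gene when the authors' annotation, which takes the nearest transcription start site (TSS), named that gene. By this rule the 9 genes held 117 of 26706 Rpb2 peaks and 60 of 55862 H3K27Ac peaks, and each had at least 1 peak of both marks, as did 10206 genes for Rpb2 and 16945 for H3K27Ac.

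Microglia were sorted as CD11b+CD45lo cells from 2-mo-old C57BL/6J mice. *Cx3cr1*-WT mice were compared with KO mice that carry the eGFP insertion on both *Cx3cr1* alleles (eGFP/eGFP), a germline allele, so that cells other than microglia lack this fractalkine receptor too. Each library was a pool of 3 mice labelled as of the same sex, with 1 female and 1 male pool per genotype and mark, which gives n = 2 pools per genotype. The 4 input samples among the 12 samples of the series were not used here, and the labels name no treatment. A difference in signal in such bulk pools cannot tell fewer cells carrying the mark from less of it per cell.

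Totals ran from 11662185 to 44332626 reads for Rpb2, the deepest being the KO female, and from 10395804 to 21134403 for H3K27Ac. A pair of libraries stood apart. The Rpb2 library labelled WT female held 136 reads at Y-linked genes, where the WT male held 214, the KO female 0 and the KO male 266. Relative to reads in peaks it stood at 104 per 1e6, near the 138 and 107 of the male pools, so the reads go against its sex label, by which it is still called here. Both WT Rpb2 pools thus carry Y-linked reads, whereas among the KO pools only the male does. Genotype and sex therefore cannot be fully told apart in the Rpb2 comparison. The H3K27Ac library of the WT female had 15.9% of its reads in peaks, against 61.1% to 65.3% in the other H3K27Ac libraries. Below, the values of the 4 pools always come in the order WT female, WT male, KO female, KO male. *Cx3cr1* itself held 3617, 3689, 11468 and 4693 Rpb2 reads, a log2 difference of −0.35 (SE 0.08) with an adjusted p of 0.121 from edgeR's quasi-likelihood test. All 12 microglial marker genes had Rpb2 peaks, while 0 of 8 neuronal markers and 2 of 11 markers of border macrophages and monocytes did. The 2 that did summed to between 56.9 and 97.6 CPM (counts scaled to a common number of reads in peaks), against 10298 to 10877 CPM for the microglial markers. Among the other lists, 1 of 7 neutrophil, 1 of 7 astrocyte, 4 of 7 oligodendrocyte and 3 of 7 endothelial markers had an Rpb2 peak. Oligodendrocyte markers summed to 457, 428, 441 and 363 CPM and astrocyte markers to 210, 203, 204 and 165 CPM. Endothelial markers summed to 149, 115, 99.8 and 119 CPM and neutrophil markers to 22.1, 37.0, 37.0 and 41.9 CPM.

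The members encode several kinds of protein. *P2ry12* and *P2ry13* encode receptors for ADP, a nucleotide released from injured cells, and P2RY12 is known for guiding microglial processes to sites of damage. *Gpr34* encodes a receptor for lysophosphatidylserine. *Tmem119*, *Siglech* and *Fcrls* encode surface proteins of little known function that serve as microglial markers, *Siglech* being a sialic acid-binding lectin and *Fcrls* a scavenger receptor of the Fc receptor-like family. *Olfml3* and *Sparc* encode secreted glycoproteins of the extracellular space, and *Slc2a5* encodes the fructose transporter GLUT5. Polymerase over a gene body and acetylation over its promoter and enhancers generally accompany transcription, and neither is a measure of messenger RNA.

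Summed over its peaks and divided by their length, Rpb2 was densest at *Tmem119* (298 ± 15.3 CPM per kb of peak, SD over the 4 libraries) and *Siglech* (279 ± 9.15 CPM per kb). These genes stood at the 89.2nd and 87.4th percentile of all genes with a peak on this per-length scale. *P2ry13* followed with 209 ± 15.0 CPM per kb, then *Olfml3* with 182 ± 12.0, *P2ry12* with 165 ± 16.2 and *Fcrls* with 146 ± 25.0. At the lower end were *Gpr34* with 120 ± 14.2 CPM per kb, *Slc2a5* with 108 ± 31.6 and *Sparc* with 97.5 ± 10.1. Only between *Siglech* and *P2ry13* did neighbours in this order not overlap in their ranges over the 4 libraries. By name, *P2ry13* had 25 Rpb2 peaks, *Gpr34* 22 and *Sparc* 20, but *Slc2a5* only 2. Peaks named for a gene need not lie on it. In the library labelled WT female, 753 of the 2221 *P2ry13* reads lay in peaks overlapping the gene, counted from 1000 bp upstream to its end. For *Gpr34* these were 499 of 958 reads. The median member stood at the 67.0th percentile per length, but at the 98.6th by summed CPM not divided by length. By summed CPM *P2ry13* ranked 12th among all genes with an Rpb2 peak, *Gpr34* 71st and *Sparc* 147th, whereas *Slc2a5* ranked 5619th. The order above is therefore one of density within called peaks, not of total signal per gene.

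H3K27Ac gave another order. Per kb of the peaks named for a gene, it was highest at *P2ry12* (25.0 ± 6.68 CPM per kb, 98.7th percentile of genes) and *P2ry13* (18.6 ± 3.86). *Siglech* followed with 17.9 ± 4.19 CPM per kb, *Olfml3* with 17.5 ± 2.73 and *Slc2a5* with 12.7 ± 2.86. *Fcrls* had 12.0 ± 3.41 CPM per kb, *Sparc* 11.9 ± 1.46 and *Gpr34* 11.7 ± 3.0. Neighbours in this order overlapped in their ranges down to *Gpr34*. The peaks named for *Tmem119* were far below them, with 5.46 ± 3.28 CPM per kb. The domain over its promoter, of 31140 bp with 838 ± 226 CPM in WT and 1014 ± 56.9 CPM in KO, carries the name of the neighbouring gene *Iscu*. That domain is not counted in this order, so the place of *Tmem119* is that of its 2 small named peaks alone. It is described further on.

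**Figure D1:**
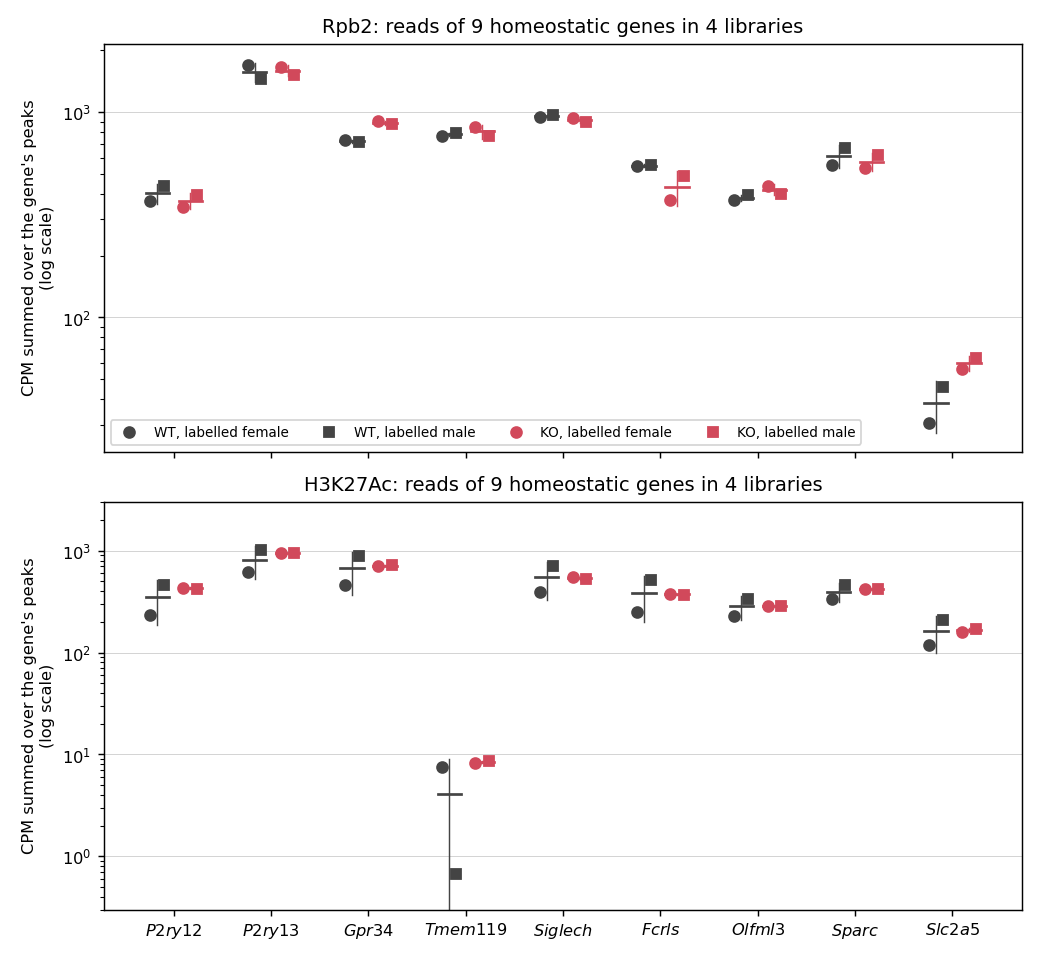
Reads summed over the peaks of each of the 9 genes (x axis), in CPM on a log scale (y axis), for Rpb2 (top) and H3K27Ac (bottom). Points are the 4 libraries of each mark, horizontal bars the genotype means and vertical lines the SD (n = 2 pools; a line reaching the bottom of the panel is cut there). Rpb2 differs little between genotypes at most genes, and in H3K27Ac the 2 KO points lie between the 2 WT points for every gene but *Tmem119*.

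The comparison of KO with WT asks whether polymerase occupancy of these genes changed with loss of *Cx3cr1*. Reads were summed per gene and tested across all 10206 genes with edgeR's quasi-likelihood test and Benjamini-Hochberg adjustment. Of the 9 members, 0 passed an adjusted p of 0.05, the lowest being 0.324, and 0% of all genes did. Without adjustment, 1 member was higher in KO and 1 lower at a p under 0.05, against 5.55% and 5.24% of all genes. Both KO pools lay above both WT pools at 3 members and below them at 2, where 22.4% and 19.7% of all genes did. The log2 difference was above 0 at 5 of 9 members, with a median of 0.02, and at 51.9% of all genes, with a median of 0.02. The direction of *P2ry12*, *Siglech* and *Sparc* turned with scaling to total mapped reads, and that of *P2ry13* and *Tmem119* with loess offsets.

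*Gpr34* was the member with the most separated pools. It lies on chromosome X (13632089 to 13640858, plus strand, within an intron of *Cask*). Its 22 peaks summed to 731, 714, 901 and 871 CPM. Both KO pools were above both WT pools, and the gap between genotypes was wider than the spread within them. The log2 difference was 0.29 (SE 0.11, 95% interval 0.07 to 0.52), with an unadjusted p of 0.0129 and an adjusted p of 0.324 in the quasi-likelihood test across all genes, so it did not pass the threshold. With any 1 library left out it ran from 0.27 to 0.32, and without the library labelled WT female it was 0.29. It was 0.21 with loess offsets and 0.55 with total mapped reads as the library size, where it did not pass the threshold either. The part of sex in the difference at this X-linked gene was not tested.

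The reads of *Gpr34* were also summed by list. The authors called peaks in each genotype and merged the lists, so that a peak in the KO list alone was selected for signal in KO. Over the 8 *Gpr34* peaks in both lists, chosen for this sum after their values were seen, the reads came to 415, 483, 460 and 539 CPM, and the genotypes overlapped. Over the other 14 peaks, 10 of them in the KO list alone, the values were 316, 231, 442 and 332 CPM. The clearest of these lay in an intron of *Gpr34*, 5335 bp from its TSS, with 21, 7, 311 and 94 reads.

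*Fcrls* was the member with the lowest KO signal relative to WT. It lies on chromosome 3 (87250758 to 87263738, minus strand). Its 12 peaks summed to 544, 554, 372 and 490 CPM. Both WT pools were close to each other and above both KO pools, which were further apart. The log2 difference was −0.35 (SE 0.15, 95% interval −0.66 to −0.04), the unadjusted p 0.0269 and the adjusted p 0.380 in the test across all genes. Without the KO female pool it was −0.16 and without the KO male pool −0.56, while without the library labelled WT female it was −0.39. With total mapped reads as the library size it was −0.07. Over the 3 *Fcrls* peaks in both lists, also summed after their values were seen, the pools held 227, 262, 173 and 204 CPM, again with no overlap.

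The largest log2 difference was that of *Slc2a5* on chromosome 4 (150119283 to 150144169, plus strand), and it was also the least certain. It held 40, 72, 304 and 158 Rpb2 reads, or 30.5, 45.9, 56.3 and 63.7 CPM, with both KO pools above both WT pools. The log2 difference of 0.64 had an SE of 0.39 and a 95% interval from −0.17 to 1.46 (adjusted p = 0.570, quasi-likelihood test). Leaving out 1 library moved it between 0.36, without the library labelled WT female, and 0.97, without the WT male.

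The ADP receptors had small log2 differences. *P2ry12* (chromosome 3, 59216272 to 59262871, minus strand) held 371, 435, 346 and 395 CPM. The genotypes overlapped, with a log2 difference of −0.12 (95% interval −0.44 to 0.20). It was −0.0056 without the WT male pool, −0.029 without the KO female, −0.22 without the KO male and −0.26 without the library labelled WT female. *P2ry13* (59207892 to 59210882, same strand) held 1694, 1453, 1663 and 1524 CPM. Its log2 difference was 0.02 (95% interval −0.17 to 0.21), the smallest of the 9.

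Of the remaining members, *Siglech* (chromosome 7, 55768178 to 55778925, plus strand) held 950, 964, 936 and 893 CPM. Both KO pools were lower, by a log2 difference of −0.06 (95% interval −0.28 to 0.15). *Olfml3* (chromosome 3, 103722222 to 103738001, minus strand) held 374, 393, 437 and 401 CPM, with both KO pools higher and a log2 difference of 0.13 (95% interval −0.18 to 0.43). *Tmem119* (chromosome 5, 113793729 to 113800516, minus strand) held 768, 789, 850 and 761 CPM, and the genotypes overlapped. *Sparc* (chromosome 11, 55394500 to 55423183, minus strand) held 555, 669, 532 and 617 CPM, also with overlap. The intervals of these 4 genes, −0.18 to 0.28 for *Tmem119* and −0.37 to 0.18 for *Sparc*, all included 0 and reached at most 0.43.

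**Figure D2:**
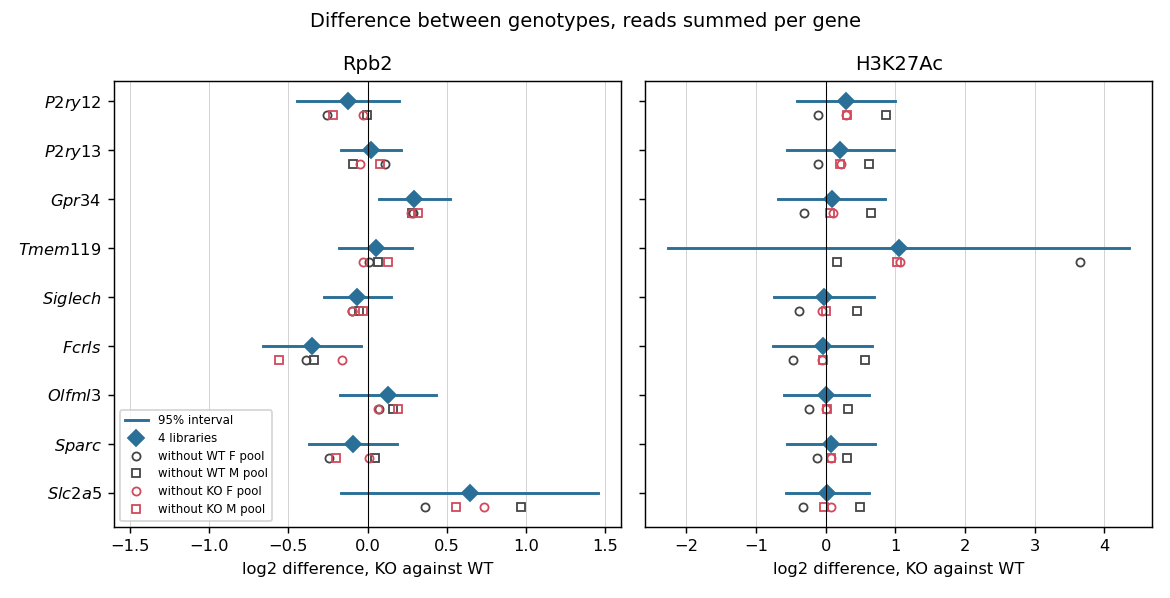
Log2 difference of KO against WT (x axis) in reads summed per gene (y axis), for Rpb2 (left) and H3K27Ac (right, wider axis). Filled diamonds with lines are the values with their 95% intervals from the fit across all genes, and open symbols the values with 1 pool left out. The Rpb2 values of *Gpr34* stay between 0.27 and 0.32, whereas H3K27Ac values move to the left without the WT female pool and to the right without the WT male, except for *Tmem119*, which moves to 3.65 and to 0.16.

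At the promoters, 8 of 9 members had an Rpb2 peak within 1000 bp of their TSS, *Slc2a5* being without one. Taking for each member the peak with the highest mean count in this window, both KO pools were below both WT pools at 4 members (*P2ry12*, *Siglech*, *Fcrls* and *Sparc*) and above them at 1 (*P2ry13*). Among all 10125 Rpb2 peaks in such windows, the corresponding shares were 27.1% and 15.4%. Those include peaks called in 1 genotype alone, whereas each of the 8 member peaks was called in both. Over all Rpb2 peaks the median log2 difference was −0.17 for peaks called in both genotypes. It was −0.89 for WT alone and 0.51 for KO alone, so the shares are not a like baseline. With total mapped reads as the library size the log2 differences of *P2ry12* and *Siglech* were above 0.

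The promoter of *Fcrls* had the largest difference of these 8. Its Rpb2 peak (chromosome 3, 87263475 to 87263807) held 148, 167, 347 and 172 reads. After scaling, this was 113 ± 3.63 CPM in WT and 65.1 ± 2.82 CPM in KO (SD, n = 2 pools), so that the gap was wider than the spread within either genotype. The log2 difference was −0.79 (SE 0.28, 95% interval −1.39 to −0.19), with an unadjusted p of 0.0143 and an adjusted p of 0.289 from the quasi-likelihood test over all 26706 peaks. Leaving out any 1 library kept it between −0.83 and −0.74. DESeq2, which called 1022 of the 26706 peaks, gave −0.80 with an adjusted p of 0.0393, past the threshold, while total mapped reads gave −0.46. The 120 bases upstream of the RefSeq *Fcrls* TSS lie within this peak, and they are shown because they hold AGGAAGT, a core motif of PU.1 and other ETS factors, on the opposite strand. PU.1 is a factor on which macrophages and microglia depend. The sequences come from RefSeq on GRCm38.p6, the build also known as mm10, written 5′ to 3′ along the gene and ending at the base before the TSS, with motif letters in capitals. *Fcrls* is at chr3:87263525-87263644, *P2ry12* at chr3:59262986-59263105 and *Sparc* at chr11:55420081-55420200, each on the minus strand.
Fcrls: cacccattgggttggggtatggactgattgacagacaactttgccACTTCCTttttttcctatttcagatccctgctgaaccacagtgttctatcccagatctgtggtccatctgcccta
P2ry12: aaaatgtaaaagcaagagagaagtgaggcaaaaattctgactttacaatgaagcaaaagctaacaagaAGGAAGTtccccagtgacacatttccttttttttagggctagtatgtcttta
Sparc: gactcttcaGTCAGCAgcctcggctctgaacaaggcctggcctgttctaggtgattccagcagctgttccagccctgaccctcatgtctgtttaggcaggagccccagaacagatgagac

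The promoter table held 7 of the 9 members (*Gpr34* and *Tmem119* were not in it). In the 250 bases before each TSS, 4 motifs were sought on both strands. AGGAAGT lay 52 to 46 bases before the *P2ry12* TSS on the gene's strand and 75 to 69 bases before the *Fcrls* TSS on the other, and 7.69% of 32851 promoters hold it. TGCTGAC, the core of MAF binding sites, lay 111 to 105 bases before the *Sparc* TSS on the opposite strand, where it reads as printed above, and 3.81% of promoters hold it. TATAAA lay 217 to 212 bases before the *Fcrls* TSS, outside the stretch shown, and is held by 12.4%. TGANTCA, the AP-1 motif, had no match in these 7 windows and is held by 6.75% of promoters. These are matches of letters in a window and nothing more. No Rpb2 peak covers the *P2ry12* stretch or the *Sparc* stretch, the promoter peaks of both genes lying downstream of the annotated starts.

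The promoter peak of *Sparc* held 282, 389, 932 and 513 reads. In CPM it was 238 ± 26.0 in WT and 185 ± 21.7 in KO, with both KO pools lower (log2 difference −0.37, SE 0.21, adjusted p = 0.510 by the quasi-likelihood test). At *Siglech* the promoter peak held 324, 279, 918 and 463 reads. In CPM it was 218 ± 48.3 against 174 ± 9.67, and the log2 difference of −0.33 (SE 0.23) shrank to −0.10 without the library labelled WT female. *P2ry12* had 140, 185, 573 and 252 reads at its promoter, that is 115 ± 9.15 against 101 ± 4.17 CPM and a log2 difference of −0.19 (SE 0.26). In contrast, the *P2ry13* promoter held 245 ± 8.61 CPM in WT and 271 ± 18.8 in KO, from 323, 363, 1562 and 660 reads, with both KO pools higher and a log2 difference of 0.14 (SE 0.19).

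The promoter peaks of *Tmem119*, *Gpr34* and *Olfml3* overlapped between genotypes. *Tmem119* held 252, 418, 1359 and 609 reads there, 236 ± 56.0 CPM in WT and 242 ± 6.76 in KO (log2 difference 0.04, SE 0.22). *Olfml3* held 133, 138, 492 and 267 reads, 97.1 ± 8.88 and 96.8 ± 10.4 CPM (−0.01, SE 0.27). At *Gpr34*, with 80, 152, 389 and 190 reads, the 81.1 ± 26.8 CPM in WT and 72.4 ± 2.39 CPM in KO gave a log2 difference of −0.17 (SE 0.32), opposite in sign to the sum over its 22 peaks.

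Where along a gene the polymerase sat was described by the share of its Rpb2 reads in peaks within 1000 bp of the TSS, a measure that does not depend on scaling between libraries. *Sparc* had the highest mean share in WT and in KO, with 38.7%, 37.1%, 32.4% and 33.6%. Both KO pools were lower, with a mean difference of −4.91 percentage points. At *Fcrls* the shares were 20.8%, 19.2%, 17.3% and 14.1%, a mean difference of −4.27 points. With 2 pools against 2 an exact, 2-sided permutation test cannot give a p below 0.333, which is the value at both genes. For the other 6 genes with such peaks the genotypes overlapped. At *P2ry12* KO was 0.25 points above WT, at *P2ry13* 0.48 and at *Gpr34* 2.14, and it was below WT at the other 3. Thus 2 of 8 members were lower in both KO pools and 0 higher, against 33.7% and 13.5% of 3188 genes with peaks both near the TSS and farther out. The median difference was −0.91 points over the members and −2.99 points over all these genes. With a window of 500 bp, *Sparc* and *Fcrls* separated as before and *P2ry13* separated in the other direction (14.5%, 15.9%, 17.4% and 17.5%). When the window was widened to 2000 bp, *Fcrls* no longer separated (21.2%, 19.7%, 21.2% and 20.6%), while *P2ry12* did (78.0%, 72.9%, 67.2% and 66.1%).

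**Figure D3:**
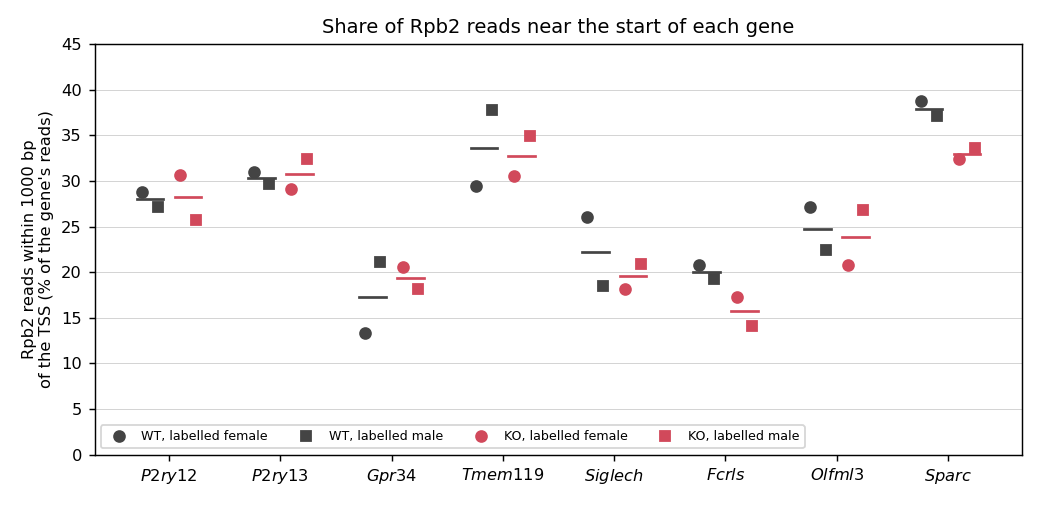
Share of each gene's Rpb2 reads that lie in peaks within 1000 bp of its TSS (y axis, percent) for the 8 members with such a peak (x axis). Points are libraries and bars genotype means. Only *Sparc* and *Fcrls* have both KO points below both WT points.

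Among the 117 member Rpb2 peaks, 76 were in introns and 13 (11.1%) lay within 1000 bp of a TSS, against 37.9% of all peaks. Both lists held 33 of them, the WT list alone 34 and the KO list alone 50. None passed an adjusted p of 0.05 in the quasi-likelihood test (lowest 0.209), as against 0.00749% of all peaks. Without adjustment 7 were higher and 10 lower in KO at a p under 0.05, compared with 6.12% and 6.06% of all peaks, and the separations of pools came to 27 higher and 31 lower, compared with 25.7% and 21.7%. Every one of the 7 came from the KO list alone. Of the 10 lower ones, 9 came from the WT list alone and 1, the *Fcrls* promoter, from both. The calling of these lists used the same pools, so those directions follow in part from how the peaks were chosen. Median log2 differences were 0.49 for member peaks of the KO list alone, −0.55 for those of the WT list alone and −0.16 for those of both, and over all peaks 0.51, −0.89 and −0.17.

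Among these, a *P2ry12* peak in an intron, 1871 bp from the TSS, held 145, 166, 274 and 182 reads (log2 difference −0.89, SE 0.30). A *Siglech* peak in an intron, 4467 bp from the TSS, held 127, 146, 308 and 78 reads (−1.16, SE 0.36). At *Sparc* an intronic peak 12667 bp from the TSS held 10, 18, 183 and 112 reads (1.95, SE 0.57), and another, at 9649 bp, held 52, 43, 66 and 27 (−1.6, SE 0.56). Peaks of the same gene thus lay on both sides of 0, and this was so at 8 members, the exception being *Slc2a5* with its 2 peaks. These peaks were chosen for description after their values were seen.

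The H3K27Ac landscape of the members was one of wide domains. Of their 60 peaks, 8 (13.3%) were wider than 10000 bp, against 603 (1.08%) of all peaks, and the median width was 1050 bp against 666 bp. The 40 other signature genes described at the end also had wide peaks, with 30 of 360 (8.33%) over 10000 bp, the widest 41210 bp and a median of 831 bp, and the difference from the members was not tested. The widest was at *P2ry13* (chromosome 3, 59200920 to 59248244), where a single peak of 47324 bp was the 4th widest of 55862. *Siglech* had a domain of 25106 bp, the 39th widest, that reached over the whole gene. *Gpr34* had 4 domains of 11624 to 15131 bp, 1 over the gene and 3 upstream of it. The widest peaks of *Fcrls*, *Sparc*, *P2ry12*, *Olfml3* and *Slc2a5* measured 14913, 11526, 9727, 8902 and 7619 bp. Widths are those of the authors' peak calling.

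*Tmem119* and the *P2ry12* locus show how naming by the nearest TSS divides such domains. The TSS of *Tmem119* lay in an H3K27Ac domain of 31140 bp (chromosome 5, 113769920 to 113801060), the 23rd widest, which was assigned to *Iscu*, an iron-sulfur cluster assembly gene next to it. This domain held 2401, 6244, 13874 and 12132 reads. In CPM it was 838 ± 226 in WT and 1014 ± 56.9 in KO, the genotypes overlapped, and the log2 difference was 0.27 (SE 0.40, adjusted p = 0.972 in the quasi-likelihood test). Without the WT female it was 0.02. Without the WT male it was 0.58, where the WT female, with its low share of reads in peaks, alone stood for WT. The 2 small peaks named for *Tmem119* itself held only 28, 4, 110 and 106 reads, and their log2 difference of 1.05 (SE 1.56) rests on the 4 reads of the WT male, since it was 0.16 without that pool. In the *P2ry12* gene, 12 Rpb2 peaks carried the name of *P2ry13*, whose H3K27Ac domain also ran far into the *P2ry12* gene. Both genes lie within *Med12l*. *Slc2a5* likewise held 1 peak of each mark named for *Slc2a7*. When all peaks overlapping the gene from 1000 bp upstream to its end were counted instead, an alternative added after seeing the data, the Rpb2 log2 differences were −0.13 for *P2ry12*, 0.09 for *P2ry13*, 0.33 for *Gpr34* and −0.47 for *Fcrls*, and 0 members passed the threshold.

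**Figure D4:**
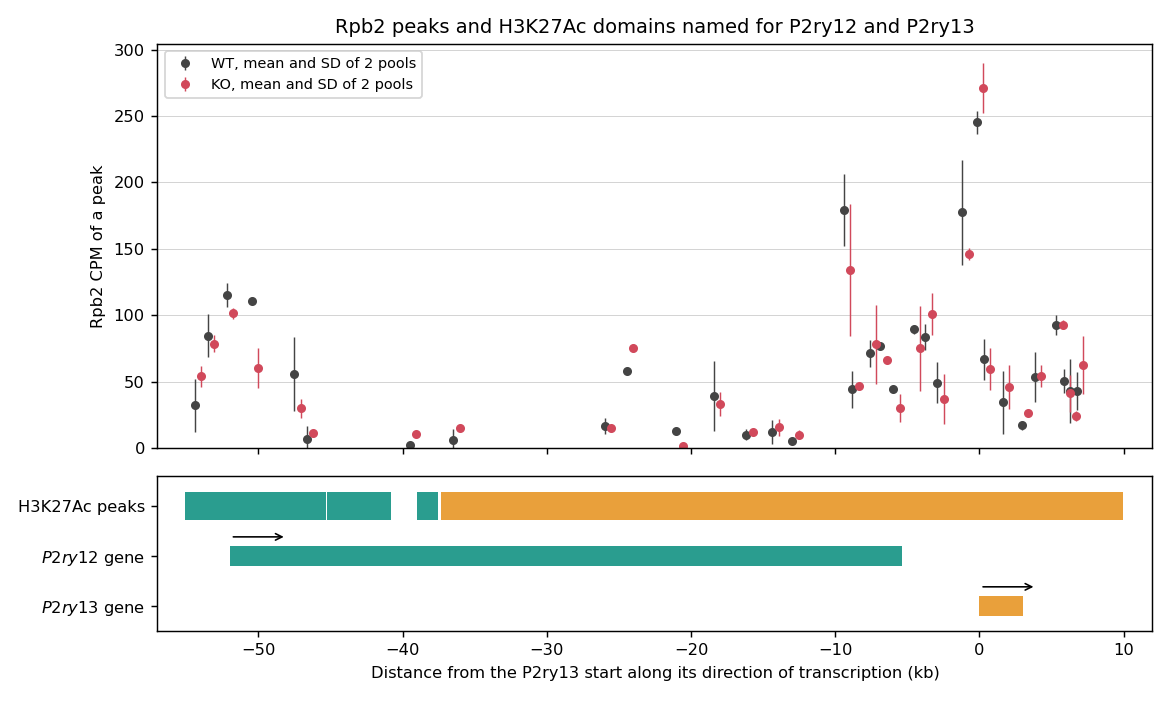
The *P2ry12* and *P2ry13* locus, as distance in kb from the *P2ry13* start along its direction of transcription (x axis). Top, mean Rpb2 CPM of each peak named for either gene in WT and KO with SD (n = 2 pools, drawn slightly apart). Bottom, the H3K27Ac peaks (green named for *P2ry12*, orange for *P2ry13*) above the genes, with arrows for transcription. The 47324 bp domain named for *P2ry13* covers that gene and most of the *P2ry12* gene.

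**Figure D5:**
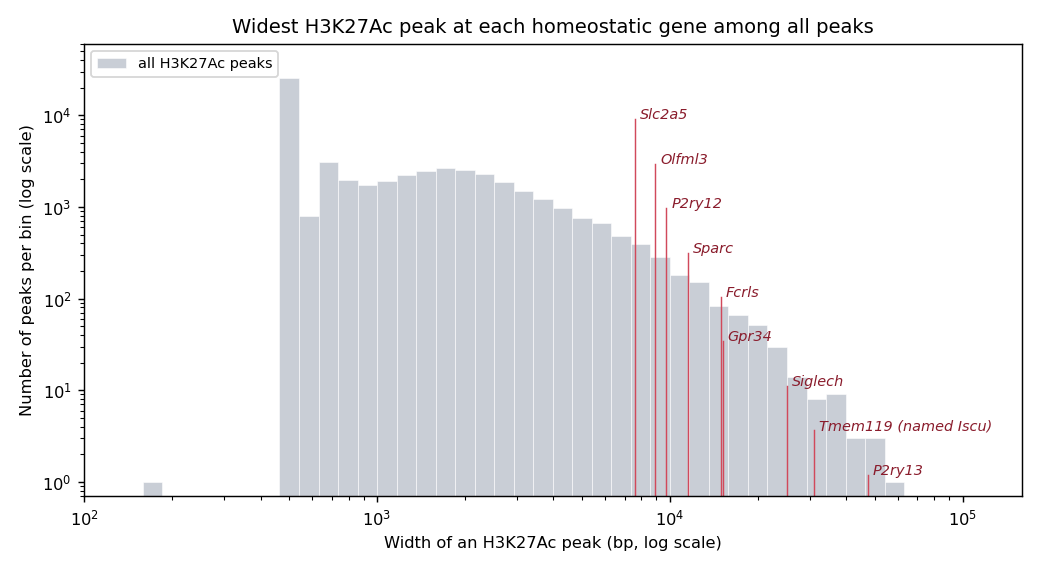
Widths of all 55862 H3K27Ac peaks (x axis, bp, log scale; y axis, peaks per bin, log scale), with red lines at the widest peak of each member, and for *Tmem119* at the domain named *Iscu* over its promoter. Line heights carry no value. The 9 lines stand in the right-hand tail, from 7619 bp at *Slc2a5* to 47324 bp at *P2ry13*.

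Rpb2 and H3K27Ac shared their places at these genes. Of the 117 Rpb2 peaks, 105 (89.7%) overlapped an H3K27Ac peak, against 76.6% of all Rpb2 peaks. All peaks of *P2ry13* (25), *Siglech* (11), *Tmem119* (10) and *Slc2a5* (2) did so, and the lowest share was 71.4% at *Olfml3*.

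The comparison of H3K27Ac between genotypes was limited by the spread of the WT pools. None of the 9 members passed an adjusted p of 0.05 in the quasi-likelihood test over 16938 genes (lowest 0.971), nor did any gene (0%), and at an unadjusted p under 0.05 there were 0 members and 6.48% of all genes. Both KO pools lay above both WT pools at 1 member, *Tmem119*, with the small counts given above, and below them at 0, against 13.4% and 14.2% of genes. At the other 8 members both KO pools lay between the WT female and the WT male. The log2 difference was above 0 at 7 of 9 members (median 0.08) and at 41.7% of all genes (median −0.11). Those of *Gpr34*, *Olfml3*, *Sparc* and *Slc2a5* turned below 0 with loess offsets, and those of *Siglech* and *Fcrls* above 0 with total mapped reads.

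The spread is seen at *P2ry12*. It held 235, 463, 433 and 424 CPM of H3K27Ac. The KO pools lay close together (429 ± 6.43 CPM, SD, n = 2 pools) and the WT pools far apart (349 ± 161 CPM). The log2 difference was 0.29 (SE 0.33, 95% interval −0.41 to 1.0). It was −0.11 without the WT female and 0.87 without the WT male, with adjusted p of 0.600 and 3.52e-16 in the quasi-likelihood test, where the lone WT pool is assumed to vary like the KO pools. *P2ry13* held 613, 1023, 943 and 946 CPM (0.21, 95% interval −0.56 to 0.97), and *Gpr34* held 457, 890, 704 and 724 CPM (0.08, −0.68 to 0.85). *Siglech* held 392, 702, 549 and 525 CPM (−0.03, −0.75 to 0.69) and *Fcrls* 253, 515, 375 and 370 CPM (−0.05, −0.76 to 0.67). For *Olfml3* the values were 230, 339, 287 and 284 CPM (0.01, −0.60 to 0.61), for *Sparc* 337, 455, 419 and 417 CPM (0.08, −0.56 to 0.71) and for *Slc2a5* 118, 207, 160 and 171 CPM (0.02, −0.57 to 0.62). Every interval included a log2 difference of 0.5 in at least one direction, so changes of that size were not detectable.

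The low WT female values went with the low share of reads in peaks in that library. The summed H3K27Ac of the 12 microglial markers was lowest there too, with 4400, 7397, 6271 and 6526 CPM. So was that of the members, with 2641, 4594, 3877 and 3870 CPM, of border macrophage and monocyte markers (8 of 11 with a peak), with 218, 335, 277 and 293 CPM, and of astrocyte markers (4 of 7), with 353, 541, 473 and 478 CPM. Oligodendrocyte (6 of 7) and endothelial markers (5 of 7) were lowest there as well, at 471 and 324 CPM. In contrast, neuronal markers (4 of 8 with a peak) were highest in the WT female, with 61.3, 20.0, 26.4 and 17.8 CPM, as were neutrophil markers (5 of 7), with 37.5, 17.8, 11.7 and 4.29 CPM. The part of these cells in the result was not tested. The part of this library in the comparison was examined by leaving it out. All 8 members other than *Tmem119* were then lower in KO, with log2 differences of −0.11 to −0.47. *Tmem119* was higher in KO (log2 difference 3.65), against the 4 reads of the WT male. The median over the members was −0.24, and over all 14708 genes in that fit 0.04. Without the WT male all 9 were higher in KO, with a median of 0.49, against −0.18 over 16900 genes. In each of these fits a lone pool stood for WT. The 60 single peaks gave 0 calls (0.0233% of all peaks), 0 at an unadjusted p under 0.05 (4.95% of all peaks), and pools apart in 9 peaks higher and 9 lower in KO, against 14.3% and 13%.

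A wider list of 40 microglial signature genes, of which 39 had peaks of both marks, was read beside the members. None passed the adjusted threshold for either mark. For Rpb2, 25 were above 0 and 14 below, with a median log2 difference of 0.06, and the pools were apart at 16 higher and 3 lower in KO, where 22.4% and 19.7% of all genes were. This list thus had more genes higher than lower in KO, while the 9 members had 3 and 2. Without adjustment, at a p under 0.05 that 5.55% and 5.24% of all genes passed as higher and lower, *Adgrg1* (0.54), *Cmtm6* (0.35), *Lgmn* (0.23) and *Itgb5* (0.23) were higher and *C1qb*, a subunit of the first complement component, was lower (−0.27). For H3K27Ac 35 were above 0 and 4 below, with a median of 0.16 and the pools apart at 6 higher and 2 lower, where 13.4% and 14.2% of all genes were.

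Over the libraries of both marks, per-kb profiles nearest to the median profile of the 9 members were those of *Irf2bp2*, *Klf7*, *Rcan1*, *Mir701* and *Arl4c*, with root mean square distances of 0.098 to 0.141 on the log2 scale among 9613 genes. *Fcrls* was the member closest to that median (0.209) and *Tmem119* the farthest (1.80). The H3K27Ac part of the *Tmem119* profile is that of the 2 small peaks named for it, without the domain named *Iscu*.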

How the data were processed

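The authors mapped 51-nt single-end reads to mm10 with Bowtie2, called HOMER peaks, kept reproducible ones, merged the lists of both genotypes, and deposited raw read counts per merged peak, annotated to the nearest TSS. Chromosome lengths were checked against GRCm38. The number of columns of sample values left unused was 0. From these counts, peaks and sums per named gene went through the quasi-likelihood test of edgeR 4.0.16 (R 4.3.3, TMM factors, genotype as the one term), for features averaging 4 or more reads in either genotype, with Benjamini-Hochberg adjustment over all features and a threshold of 0.05. CPM refer to reads in all peaks after TMM scaling. A floor of 3 reads is 0.0677 to 0.289 CPM of total reads, for counting error only. The labels do not say more of the animals. The p values rest on the spread between the female-labelled and male-labelled pools of a genotype, with estimates of spread shared across features. Alternatives were other library sizes, loess offsets, DESeq2 1.42.0, no filter, a sex block, each pool left out, other peak sets, and, added after seeing the data, the newer quasi-likelihood method and peaks overlapping the gene. The 9 members, the promoter and highest H3K27Ac peak of each, the 40 signature genes and the markers were chosen with earlier results of these data known. The edgeR fits of peaks and of sums per named gene, and the motif search, were tested on simulated data. The simulated counts had less spread between libraries than Rpb2 showed, and far less than H3K27Ac showed. DESeq2, the sums over peaks overlapping the gene and the remaining steps were not tested in this way. Gene positions are from GENCODE vM21. matplotlib 3.10.9 drew the figures.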

Additional observations from a re-analysis of the deposited data

How the results depend on the processing

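Of the member values, 98 of 108 alternatives to the Rpb2 sums, 90 of 104 to the promoter peaks and 73 of 108 to the H3K27Ac sums kept their direction and their side of the threshold. The cause of the changes was not tested. Scaling to total mapped reads moved the median log2 difference of all features from 0.02 to 0.27 (Rpb2 genes), 0.04 to 0.37 (Rpb2 peaks), −0.11 to 0.63 (H3K27Ac genes) and −0.21 to 0.53 (H3K27Ac peaks). The Rpb2 sums then became 0.14 (*P2ry12*), 0.19 (*Siglech*) and 0.17 (*Sparc*), the promoter peaks 0.14 (*P2ry12*), 0.16 (*Gpr34*), 0.013 (*Siglech*) and 0.34 (*Olfml3*), and the H3K27Ac sums 0.49 (*Siglech*) and 0.43 (*Fcrls*). Loess offsets gave Rpb2 sums of −0.082 (*P2ry13*) and −0.030 (*Tmem119*), a promoter value of 0.12 (*Olfml3*), and H3K27Ac sums of −0.031 (*Gpr34*), −0.12 (*Olfml3*), −0.068 (*Sparc*) and −0.067 (*Slc2a5*). H3K27Ac sums of *Olfml3* and *Slc2a5* were −0.033 and −0.010 with reads in peaks and no TMM, −0.023 and −0.0059 with DESeq2, and −0.042 and −0.055 with the newer quasi-likelihood method. With peaks overlapping the gene, *Sparc* was −0.029 and *Slc2a5* −0.087. The promoter of *Olfml3* was 0.054 with reads in peaks, 0.12 among peaks near a TSS and 0.16 among peaks of both lists, where that of *Gpr34* was 0.0038.

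Calls at an adjusted p under 0.05 over all features were 2 Rpb2 peaks, 0 Rpb2 genes, 13 H3K27Ac peaks and 0 H3K27Ac genes (1101 and 1098 genes at an unadjusted p under 0.05). For Rpb2 peaks they came to 1 with loess offsets, 1022 with DESeq2, 272 with the newer method, 0 among peaks near a TSS (1069 unadjusted) and 8 among peaks of both lists. For Rpb2 genes they came to 28 with total mapped reads, 28 with DESeq2 and 40 with the newer method. For H3K27Ac peaks they came to 0 with total mapped reads, the newer method, peaks near a TSS or peaks of both lists (1222, 1962, 384 and 622 unadjusted), and to 240 with DESeq2. For H3K27Ac genes they came to 8 with total mapped reads, 359 with loess offsets and 213 with DESeq2. With 1 pool left out the ranges were 0 to 2210 Rpb2 peaks, 0 to 264 Rpb2 genes, 2 to 8157 H3K27Ac peaks and 88 to 3807 H3K27Ac genes.

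Sex is the one label that the pools share across genotypes, and the pools are of different animals. For Rpb2 the Y-linked reads of the library labelled WT female go against that label, so the Rpb2 values of this paragraph rest on a sex that the data contradict. Deviations of pools of the same sex correlated at −0.0055 over Rpb2 genes and −0.026 over H3K27Ac genes, so they are not treated as pairs. With sex as a replicate block the calls were 4 Rpb2 peaks, 43 Rpb2 genes, 12 H3K27Ac peaks and 140 H3K27Ac genes, 0 of them members, and the H3K27Ac sums of *Siglech* and *Fcrls* were 0.032 and 0.043.

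Leaving out 1 pool moved the Rpb2 sums of *P2ry12* between −0.26 and −0.0056, of *Siglech* between −0.10 and −0.031, of *Olfml3* between 0.064 and 0.19, of *P2ry13* between −0.090 and 0.11, of *Tmem119* between −0.033 and 0.13 and of *Sparc* between −0.24 and 0.045. Promoter values ran from −0.48 to 0.22 (*Gpr34*), −0.20 to 0.31 (*Tmem119*) and −0.12 to 0.10 (*Olfml3*). H3K27Ac sums ran from −0.11 to 0.87 (*P2ry12*), −0.11 to 0.62 (*P2ry13*), −0.32 to 0.64 (*Gpr34*), −0.38 to 0.45 (*Siglech*), −0.47 to 0.56 (*Fcrls*), −0.24 to 0.31 (*Olfml3*), −0.12 to 0.31 (*Sparc*) and −0.32 to 0.49 (*Slc2a5*). The median difference in the member share near the TSS, −0.91 points, was −1.73 with a window of 500 bp, −0.90 with 2000 bp and −2.91 to −0.19 with 1 pool left out, that is −2.91 without the KO male, −1.91 without the WT male, −0.33 without the library labelled WT female and −0.19 without the KO female.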
